A study of Mus musculus with 2 samples.

Results

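The genes described here were 10 members of the p53 pathway, taken by symbol from the 32285 genes of the deposited matrices. They were Trp53, which encodes p53, its negative regulators Mdm2 and Mdm4, and the p53 target genes Cdkn1a, Ccng1, Phlda3, Gadd45a, Gdf15, Bax and Sesn1. Each symbol matched 1 gene. The list was drawn up with earlier results of these data known. In the GENCODE M21 annotation of mouse build GRCm38, Trp53 lies at chr11:69580359-69591873 (plus strand), Mdm2 at chr10:117688875-117710758 (minus), Mdm4 at chr1:132959484-133030561 (minus) and Cdkn1a at chr17:29090976-29100727 (plus). Reads of some members may be shared with overlapping genes: Cdkn1a, Mdm4 and Gadd45a overlap another gene on the opposite strand, and Bax and Sesn1 one on the same strand. The question was how these genes differed between liver cells of WT mice and of mice lacking NgBR in hepatocytes, and in which cell types.

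p53 is a transcription factor that is kept scarce in unstressed cells, because MDM2 marks it for degradation and MDM4 blocks its activation domain. DNA damage and other stresses release it, and it then raises the transcription of genes that halt the cell cycle, trigger apoptosis or limit oxidative and metabolic stress. Since much of this control acts on the protein, the mRNA of Trp53 and the mRNAs of its targets need not move together. In liver, p53 is best known as a tumor suppressor and Cdkn1a as a brake on hepatocyte division.

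The series held 1 WT library and 1 N-LKO library of single liver cells, each made with 10x Genomics 3′ chemistry. The N-LKO mice carried albumin-Cre, which is active in hepatocytes, and a loxP-flanked allele of Nus1, the gene for the Nogo-B receptor (NgBR), a subunit of the enzyme that makes the dolichol precursor for protein glycosylation. Both groups had received the diet for 16 weeks, named HFD in the sample titles and WD in the treatment labels, and were in the C57BL6 background; the study's methods describe age-matched mice kept on chow for 8 weeks before the switch, and the number of mice per library was not given in the sources used here. The source of the WT library was liver and that of the N-LKO library liver plus tumor, and the study's methods describe adding tumor cells to hepatocytes and nonparenchymal cells for N-LKO only, so that genotype, tumor content and library cannot be told apart.

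With 1 library per group there was no replicate, and no test between genotypes was possible. Levels are therefore given as CPM, the unique molecular identifiers (UMIs) of a gene per 1000000 UMIs of the cells in question, with exact 95% Poisson intervals, and differences as the log2 ratio of N-LKO over WT with exact 95% intervals. These intervals cover counting error only and say nothing about variation between mice. A gene was counted as higher or lower when its levels differed at least 2-fold and it reached 5 CPM in at least 1 library, and each count of members is set beside the share of all genes that met the same rule.

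The WT library held 100171 barcodes and the N-LKO library 90147, with 85522287 and 87575064 UMIs, of which 18430 and 19854 cells at 1000 or more UMIs were kept, at medians of 1400 and 1455 UMIs. Of the kept cells, 481 in WT and 565 in N-LKO carried a barcode present in both libraries. Clusters were named from fixed markers. There were 9979 WT and 5202 N-LKO hepatocyte-like cells, and 9 other classes had at least 200 cells in each library: endothelial-like, stellate-like, cholangiocyte-like, Kupffer/macrophage-like, monocyte-like, dendritic-like, plasmacytoid dendritic-like, T/NK-like and B-like. RNA free in the suspension could account for a large part of what was counted. The upper estimate was 81.3% of the UMIs of WT hepatocyte-like cells and 65.7% of those of N-LKO hepatocyte-like cells. In the other 9 classes it was 32.4% to 57.6%.

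The targeted gene was examined first. Nus1 stood at 72.9 CPM in WT hepatocyte-like cells (1230 UMIs) and at 37.4 CPM in N-LKO (399 UMIs), a log2 ratio of −0.96 (95% interval −1.13 to −0.80). The loxP sites flank exon 1, and 3′ reads lie outside it, so the Nus1 UMIs do not measure the deletion itself. In endothelial-like cells, in which albumin-Cre is not expected to act, Nus1 was at 90.7 and 109 CPM.

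In hepatocyte-like cells every member that reached 5 CPM had a higher level in N-LKO, though for Ccng1 the interval of the ratio included 0 and with TMM scaling factors the ratios of Trp53, Ccng1 and Gadd45a fell below 0. Cdkn1a stood apart from the others. Its N-LKO level of 96.8 CPM was 5.28-fold the WT level of 18.3 CPM. Mdm4 and Sesn1 were the other members past 2-fold, Phlda3 stayed below 5 CPM in both libraries, and the level of Trp53 itself differed less than that of most of its targets. The ratios must be read against those of all genes in this class, whose median was 0.50: 28.2% of 10898 genes were at least 2-fold higher in N-LKO and 2.74% at least 2-fold lower, so that 3 of 9 members at least 2-fold higher was close to the background. Likewise 9 of 9 members had a ratio above 0, as had 72.3% of all genes, and the median ratio of the members was 0.87.

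Trp53 was the member nearest to that background. WT cells held it at 13.9 CPM (95% interval 12.1 to 15.8; 234 UMIs) and N-LKO cells at 19.6 CPM (209 UMIs). The log2 ratio of 0.50 (0.22 to 0.78) equalled the median of all genes. A level was taken to exceed free RNA when the lower end of its interval did. The 12.2 CPM that free RNA alone could give lay inside the interval of the WT level, whereas the N-LKO level exceeded its corresponding 10.1 CPM.

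Both negative regulators were higher in N-LKO. Mdm2, which encodes the ubiquitin ligase of p53 and is itself a p53 target, measured 36.2 CPM (WT, 610 UMIs) and 66.2 CPM (N-LKO, 706 UMIs), with a log2 ratio of 0.87 (0.72 to 1.03). Mdm4, its partner without ligase activity of its own, went from 34.8 CPM (588 UMIs) to 115 CPM (1227 UMIs), with a log2 ratio of 1.72 (1.58 to 1.87). Mdm4 exceeded the median of all genes by 1.22 and Mdm2 by 0.37 on the log2 scale.

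Among the genes of cell-cycle arrest, Cdkn1a, which encodes the cyclin-dependent kinase inhibitor p21, was the most different. Its WT level of 18.3 CPM (16.3 to 20.5; 309 UMIs) lay far below the N-LKO level of 96.8 CPM (91.0 to 103; 1032 UMIs). The log2 ratio was 2.40 (2.22 to 2.59), at the 96.6th percentile of all genes. Ccng1, which encodes cyclin G1 and feeds back on p53 through MDM2, was at 21.7 CPM (366 UMIs) and 25.3 CPM (270 UMIs), and the interval of its log2 ratio, 0.22 (−0.01 to 0.45), included 0. Gadd45a, a growth-arrest and DNA-repair gene, was at 12.1 and 16.9 CPM, with a log2 ratio of 0.48 (0.19 to 0.78) that was no larger than the median of all genes.

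The 2 apoptosis genes differed in level. Bax, the effector that permeabilizes the mitochondrial outer membrane, measured 18.7 CPM (WT, 316 UMIs) and 34.6 CPM (N-LKO, 369 UMIs), with a log2 ratio of 0.89 (0.67 to 1.11), and the WT level did not exceed the 22.4 CPM that free RNA could give. Phlda3, a p53-induced repressor of Akt signaling, was nearly absent, with 5 UMIs in WT (0.296 CPM) and 35 in N-LKO (3.28 CPM). Its log2 ratio was 3.35 (2.11 to 5.18), but it did not reach the level at which genes were compared.

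The stress genes were higher as well. Gdf15, a secreted stress cytokine that is also induced by ATF4 and CHOP, measured 32.4 CPM (WT, 547 UMIs) and 54.6 CPM (N-LKO, 582 UMIs), with a log2 ratio of 0.75 (0.58 to 0.92). This direction turned when only cells with at most 10% mitochondrial UMIs were counted (755 WT and 1068 N-LKO cells), where Gdf15 was at 79.8 and 53.4 CPM, a log2 ratio of −0.58 (−0.95 to −0.21). Sesn1, which encodes the antioxidant protein and mTORC1 inhibitor sestrin 1, was at 19.3 CPM (326 UMIs) and 44.3 CPM (472 UMIs), a log2 ratio of 1.20 (0.99 to 1.40).

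**Figure D1:**
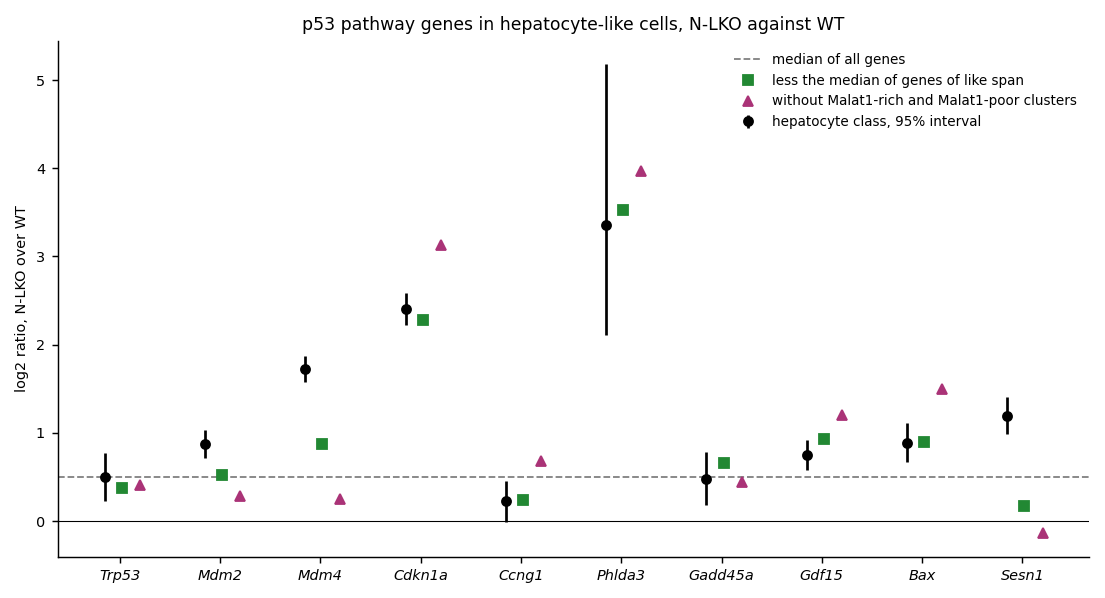
Log2 ratio of N-LKO over WT (vertical axis) for the 10 p53 pathway genes (horizontal axis) in hepatocyte-like cells: black circles with 95% intervals for the whole class, green squares after subtracting the median of genes of like genomic span, purple triangles without the Malat1-rich and Malat1-poor clusters; the dashed line is the median of all genes, 0.50. Cdkn1a is high by all 3 measures, at 2.40, 2.28 and 3.13, whereas Sesn1 goes from 1.20 to 0.17 and −0.14. Of the 2112 N-LKO cells behind the purple triangles, 2065 belong to 1 cluster, cluster 6.

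How much of each ratio was shared with other genes depended on the length of the gene. Across all genes in hepatocyte-like cells, the median log2 ratio went from −0.18 for the decile with the shortest genomic spans (median 3.27 kb) to 1.18 for the longest (median 223 kb). Sesn1 spans 98.5 kb and Mdm4 71.1 kb, and relative to genes of like span their log2 ratios were 0.17 and 0.88. The short members moved the other way: Gdf15 (3.06 kb), Bax (5.20 kb) and Gadd45a (2.36 kb) came to 0.93, 0.90 and 0.66. Cdkn1a (9.75 kb) changed little, to 2.28, Mdm2 (21.9 kb) came to 0.52 and Trp53 (11.5 kb) to 0.37. Set against genes of their own length, Cdkn1a, Gdf15, Bax and Mdm4 thus stood highest among the members at 5 CPM or more, and Sesn1 lowest.

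The makeup of the hepatocyte-like class was not the same in both libraries. It held 6 clusters, and different clusters held most of the cells in WT and in N-LKO. WT cells were mainly in cluster 0 (6221 cells), cluster 7 (2081), cluster 11 (1204) and cluster 17 (368), N-LKO cells in cluster 2 (3069) and cluster 6 (2065, with 99 WT cells). Clusters 2 and 17 were rich in Malat1, a nuclear RNA, at 19484 and 34566 CPM, and cluster 11 was poor in it at 1552 CPM, against 4591 to 9290 CPM in the other 3. Cluster 2 had the weakest hepatocyte identity, with 3 of 11 hepatocyte markers raised and 13693 CPM in all for these markers, against 30325 to 66639 CPM in the other clusters; all 11 were detected in each cluster. Cluster 6 had all 11 raised. Markers of other cell types were low throughout: the endothelial list summed to 152 to 725 CPM and the Kupffer/macrophage list to 118 to 533 CPM.

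Of the members, 6 fell into 2 patterns over these clusters. Mdm2, Mdm4 and Sesn1 were highest in the Malat1-rich clusters of both libraries. Mdm4 was at 93.1 CPM in cluster 17 (WT) and 175 CPM in cluster 2 (N-LKO), but at 36.8 CPM in cluster 0 (WT) and 39.5 CPM in the N-LKO cells of cluster 6. Sesn1 was at 59.0 and 65.9 CPM in the Malat1-rich clusters and at 20.7 and 17.4 CPM in clusters 0 and 6, and Mdm2 at 94.4 and 86.4 against 37.0 and 41.4 CPM. For Sesn1 and Mdm2 in these 4 clusters, levels differed more between kinds of cluster than between the libraries.

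Cdkn1a, Bax and Phlda3 showed the other pattern, with the highest levels in cluster 6. Cdkn1a was at 145 CPM (134 to 157) in N-LKO cells of cluster 6 and at 58.6 CPM in cluster 2, and ranged from 10.9 to 32.3 CPM in the 4 clusters that were mainly WT. Within the N-LKO library, cluster 6 exceeded cluster 2 by a log2 ratio of 1.31 (1.12 to 1.5) for Cdkn1a, 1.14 for Bax, 0.88 for Ccng1 and 2.24 for Phlda3 (27 against 7 UMIs). The opposite held for Mdm4, at −2.14 (−2.38 to −1.92), for Sesn1, at −1.92, and for Mdm2, at −1.06. The 99 WT cells that fell in cluster 6 also had a high Cdkn1a level, 101.4 CPM on 22 UMIs, and their difference from the N-LKO cells of the same cluster was a log2 ratio of 0.49 with an interval that included 0 (−0.09 to 1.20). Bax in these WT cells was at 64.5 CPM and Gdf15 at 78.3 CPM, above the 49.9 and 64.4 CPM of the N-LKO cells on 14 and 17 UMIs, whereas Nus1 was lower in the N-LKO cells by a log2 ratio of −0.95 (−1.65 to −0.07). Markers of cholangiocytes and of dividing cells were also higher in cluster 6. The list of 7 cholangiocyte markers summed to 628 CPM in its N-LKO cells and 364 CPM in its WT cells, against 318 CPM in cluster 2 and 40.6 to 143 CPM in the 4 clusters mainly of WT, and Krt19, Krt7, Epcam and Cftr were at 0 in its WT cells. The list of 8 dividing-cell markers summed to 110 CPM in N-LKO and 230 CPM in WT cells of cluster 6, against 5.78 to 73.1 CPM in the other clusters. The part of these cells in the Cdkn1a level was not tested. The other 4 members followed neither pattern: Trp53 was highest in the Malat1-poor cluster 11 (26.1 CPM), Gadd45a and Gdf15 in cluster 17 (22.3 and 122 CPM), and Ccng1 was about as high in cluster 11 (32.3 CPM) as in the N-LKO cells of cluster 6 (34.1 CPM). Of the cells of cluster 6, 2 of 99 in WT and 68 of 2065 in N-LKO carried a barcode found in both libraries.

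**Figure D2:**
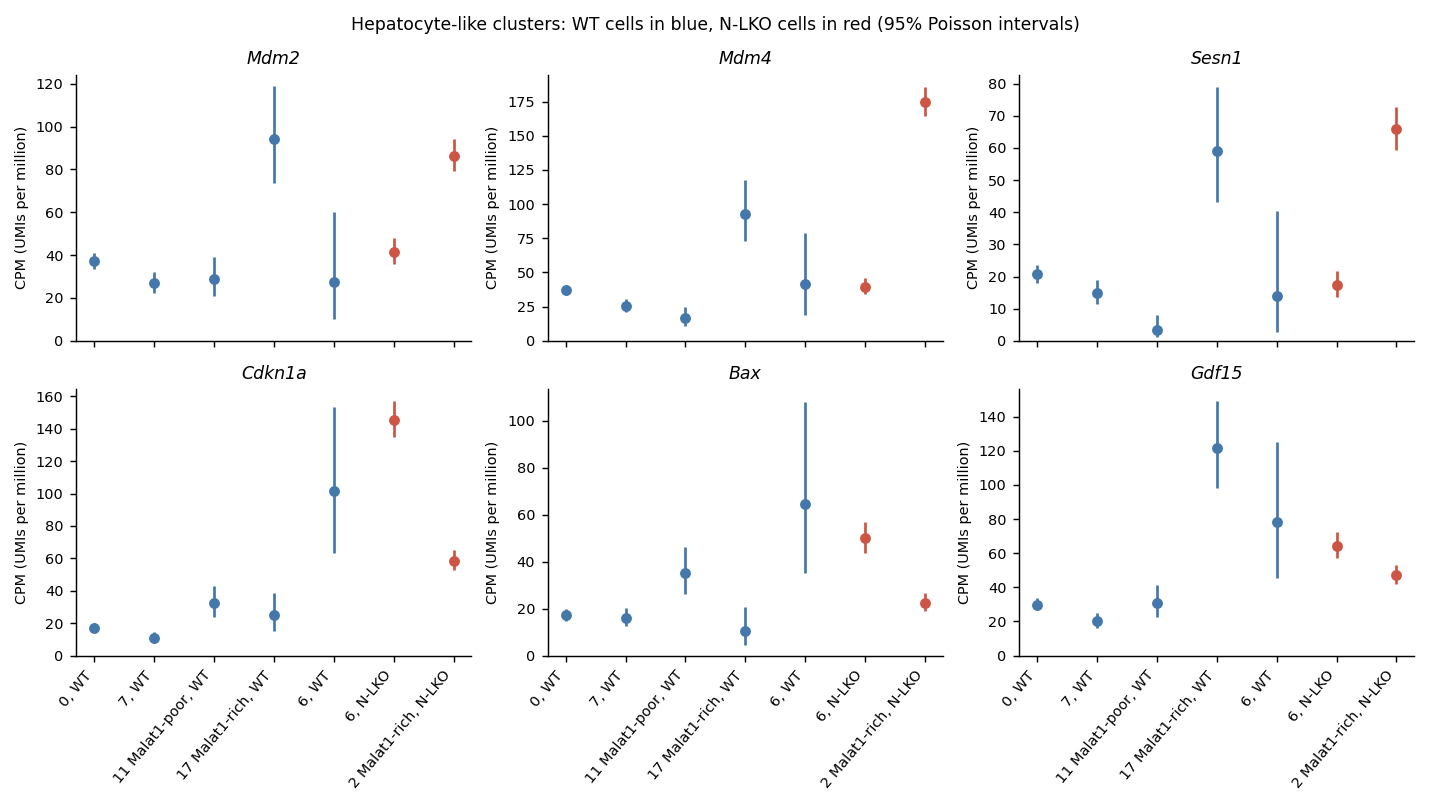
Level in CPM (vertical axes) of 6 p53 pathway genes in each hepatocyte-like cluster (horizontal axis), WT cells in blue and N-LKO cells in red, with 95% Poisson intervals. Mdm2, Mdm4 and Sesn1 peak in the Malat1-rich clusters 17 and 2, while Cdkn1a peaks in cluster 6, at 145 CPM in N-LKO and 101.4 CPM in the 99 WT cells.

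Pairs of clusters were then set against each other across the libraries. Clusters 17 and 2 were alike in being rich in Malat1 but differed otherwise. Hepatocyte markers summed to 30325 CPM in WT cluster 17 and 13693 CPM in N-LKO cluster 2. Cholangiocyte markers summed to 143 and 318 CPM and dividing-cell markers to 6.55 and 73.1 CPM. Mitochondrial UMIs made up 7.67% and 14.1%. Clusters 0, 7 and 11 differed from cluster 6 in Malat1 and in markers of cholangiocytes and dividing cells. All 4 pairs thus compare unlike cells. Between the Malat1-rich clusters, WT cluster 17 and N-LKO cluster 2, in which 18.7% of genes were at least 2-fold higher in N-LKO, Cdkn1a was higher by a log2 ratio of 1.20 (0.57 to 1.98; 19 and 348 UMIs) and Mdm4 by 0.90 (0.56 to 1.28). Mdm2 (−0.14) and Sesn1 (0.14) had intervals that included 0, and Gdf15 was lower in N-LKO, at 122 and 47.2 CPM, by −1.38 (−1.71 to −1.02). The targeted gene Nus1 scarcely differed in this pair, at 39.3 and 36.2 CPM, a log2 ratio of −0.14 (−0.67 to 0.48). In N-LKO cells of cluster 6, Nus1 had log2 ratios of −0.99, −0.79 and −0.77 against WT clusters 0, 7 and 11. How far the Nus1 difference of the whole class followed its cluster makeup was not tested. Between the largest WT cluster, cluster 0, and the N-LKO cells of cluster 6, in which 6.02% of genes were at least 2-fold higher, Cdkn1a went from 17.1 to 145 CPM, with a log2 ratio of 3.08 (2.84 to 3.34). Phlda3 was higher by 3.74 (2.37 to 5.86; 4 and 27 UMIs), Bax by 1.53 (1.24 to 1.83), Gdf15 by 1.11 (0.87 to 1.34) and Ccng1 by 0.57 (0.27 to 0.87). Mdm2 (0.16), Mdm4 (0.10) and Sesn1 (−0.25) had intervals that included 0. Against the other WT clusters the same N-LKO cells gave other values for the negative regulators and Sesn1. Set against cluster 7 (13.8% of genes at least 2-fold higher), Mdm2 and Mdm4 were each higher by 0.63, with intervals from 0.29 to 0.97 and 0.29 to 0.99. Set against the Malat1-poor cluster 11 (23.7%), Mdm4 was higher by 1.23 (0.64 to 1.94), Mdm2 by 0.51 (0.03 to 1.04) and Sesn1 by 2.21 (1.05 to 3.997; 5 and 80 UMIs), Trp53 was lower by −0.71 (−1.29 to −0.10), and Ccng1 was at 0.07. Cdkn1a was higher in N-LKO in each of these 4 pairs, by 3.73 and 2.16 in the last ones, whereas Gdf15 was lower between the Malat1-rich clusters and higher in the other 3. Between the WT and N-LKO cells of cluster 6 itself, the ratios of Cdkn1a (0.49), Bax (−0.42) and Gdf15 (−0.32) had intervals that included 0. The pairs were chosen after the data had been seen.

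With both kinds of Malat1-extreme cluster left out of the class as a whole, the median ratio of all genes fell to 0.08 and the share of genes at least 2-fold higher to 6.23%. All 10 members then reached 5 CPM and 4 were at least 2-fold higher: Cdkn1a at 3.13, Phlda3 at 3.96, Bax at 1.5 and Gdf15 at 1.20. Phlda3 reached 5 CPM in N-LKO only. Ccng1 was at 0.68, Trp53 at 0.41, Mdm2 at 0.28, Mdm4 at 0.25 and Sesn1 at −0.14, so that Mdm4 and Sesn1 were past 2-fold only with the Malat1-extreme clusters counted.

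With the higher Cdkn1a level came a larger share of cells with a Cdkn1a UMI and more cells with several. A Cdkn1a UMI was seen in 296 of 9979 WT hepatocyte-like cells (2.97%) and in 842 of 5202 N-LKO cells (16.2%), and 3 or more UMIs in 1 and 39 cells. By cluster, the share in N-LKO was 25.2% in cluster 6 and 10.1% in cluster 2. At a fixed depth of 1000 UMIs per cell the shares were 1.89% (1.64% to 2.18%) and 8.71% (7.96% to 9.51%), from median depths of 1521 and 1761 UMIs. At that depth free RNA alone could give a UMI to 1.51% of the cells in WT and to 3.87% in N-LKO, so the WT share was close to background and not all cells with a UMI can be taken to express the gene. No liver class is known to lack Cdkn1a, and the lowest WT level among the 10 classes was in B-like cells, where the shares at that depth were 0.958% in WT and 5.43% in N-LKO, from median depths of 1227 and 1331 UMIs, against 1.03% and 3.40% from free RNA; the WT share in B-like cells was thus at background. Shares for Mdm4 went from 3.40% to 11.1% and those for Trp53 from 1.45% to 1.88% in hepatocyte-like cells.

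The sequence upstream of the gene is shown because Cdkn1a was the member that differed most. A p53 response element joins a pair of decamers, and a script looked for it in the 300 bases around each RefSeq start site (GRCm38.p6), on both strands and with at most 2 mismatches. The decamers had to be adjacent, and the core C and G of each had to match. Elements with a spacer or outside these windows were not looked for. Of 32851 promoters, 107 held a match (0.326%). The 10 members had 14 such promoters, of which 2 held one, those of Cdkn1a and Ccng1. Each is printed 5′ to 3′ on the strand of its gene with the matched element in capitals.

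Cdkn1a, chr17:29090888-29090978, plus strand: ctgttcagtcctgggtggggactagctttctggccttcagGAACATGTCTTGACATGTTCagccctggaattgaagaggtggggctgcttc
Ccng1, chr11:40755422-40755521, minus strand: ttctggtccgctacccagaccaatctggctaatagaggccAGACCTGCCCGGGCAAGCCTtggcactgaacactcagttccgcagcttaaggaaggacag

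The Cdkn1a element began 51 bases before the more upstream of the gene's 2 RefSeq start sites and 2841 bases before the other. The Ccng1 element began 195 bases before its start site. Each differed from the motif at 1 base. In hepatocyte-like cells Ccng1 had a log2 ratio of 0.22 and Cdkn1a one of 2.40. Whether the elements bear on these ratios was not tested. A match describes the letters in these windows and is no evidence of binding.

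Over the 10 cell classes Cdkn1a was the member that differed most often. It was higher in N-LKO in each of the 10 classes, its interval lay above 0 in 9, and it was past 2-fold in 7. Of 9232 genes that could be compared in all 10 classes, 147 (1.59%) were at least 2-fold higher in N-LKO in 7 or more, and Cdkn1a was the only member among them. Outside hepatocyte-like cells, Mdm4 and Sesn1 were at least 2-fold higher in no class, Mdm2 in plasmacytoid dendritic-like cells, Ccng1 in cholangiocyte-like cells (3 and 27 UMIs), and Phlda3 in endothelial-like and cholangiocyte-like cells. Phlda3 was at least 2-fold lower in stellate-like cells (14 and 4 UMIs, log2 ratio −1.05). All of these Ccng1 and Phlda3 ratios had intervals that included 0.

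Cdkn1a levels in WT were lowest in B-like cells and highest in monocyte-like cells. In endothelial-like cells the level went from 38.1 CPM (103 UMIs) to 106 CPM (337 UMIs), with a log2 ratio of 1.47 (1.15 to 1.81). WT and N-LKO endothelial-like cells lay mostly in different clusters, but within cluster 4, which held 358 WT and 2257 N-LKO cells, the levels were 27.7 CPM (15.2 to 46.6) and 102 CPM (90.7 to 114). In Kupffer/macrophage-like cells it was at 37.7 and 82.5 CPM, a log2 ratio of 1.12 (0.81 to 1.47), and in T/NK-like cells at 24.2 and 62.6 CPM, a log2 ratio of 1.36 (0.84 to 1.93). These 3 classes rested on 37 or more UMIs in each library.

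The smaller classes gave wider intervals in the same direction. Cholangiocyte-like cells (7 and 66 UMIs) and plasmacytoid dendritic-like cells (5 and 42 UMIs) each had a log2 ratio of 1.68, and B-like cells (4 and 53 UMIs) one of 2.29 (1.01 to 4.38). Monocyte-like cells had the highest levels, 63.0 and 109 CPM, with a log2 ratio of 0.78 (0.39 to 1.21), and stellate-like cells a log2 ratio of 0.86 (0.31 to 1.41). The interval of dendritic-like cells, 0.53 (−0.46 to 1.75), included 0. The order of neighbouring classes was not resolved: in N-LKO, monocyte-like (109), endothelial-like (106) and hepatocyte-like (96.8) cells had overlapping intervals.

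Free RNA moved with this result. In barcodes under 500 UMIs, which hold mostly RNA from broken cells, Cdkn1a differed as well, with 18.7 CPM for WT, 60.0 CPM for N-LKO and a log2 ratio of 1.68. From this, free RNA could give 6.07 to 15.2 CPM of Cdkn1a in the WT classes and 19.7 to 39.4 CPM in the N-LKO classes, below the measured N-LKO level in each of the 10. After subtraction of this amount Cdkn1a was still higher in N-LKO in 9 of 10 classes and past 2-fold in 6, with the lowest values in dendritic-like (−0.06) and stellate-like cells (0.41) and the highest in B-like (3.98) and hepatocyte-like cells (3.41). The WT level in B-like cells (9.88 CPM) was below the 10.3 CPM that free RNA could give, and that in plasmacytoid dendritic-like cells (15.7 CPM on 5 UMIs) had an interval that reached below the corresponding 8.51 CPM.

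**Figure D3:**
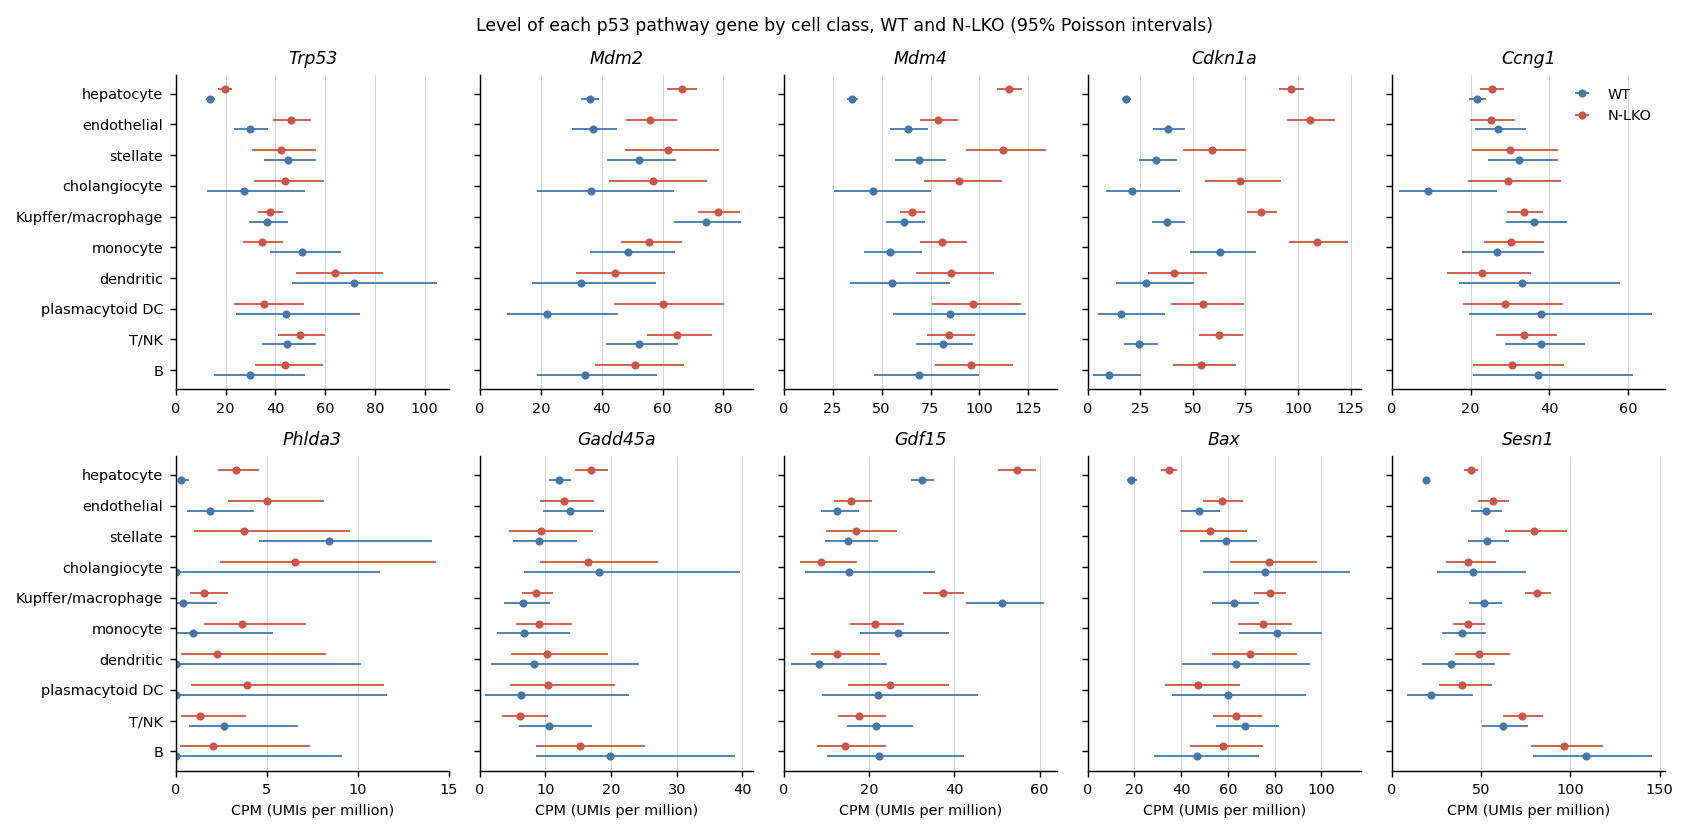
Level in CPM (horizontal axes) of each p53 pathway gene in the 10 cell classes (vertical axis), WT in blue and N-LKO in red, with 95% Poisson intervals; the horizontal scale differs between panels. Red points of Cdkn1a lie to the right of the blue ones in all 10 classes, whereas those of Trp53 lie on either side.

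Trp53 did not follow Cdkn1a across the classes. It was higher in N-LKO in 6 of 10 classes, past 2-fold in none, with an interval above 0 in hepatocyte-like and endothelial-like cells and below 0 in monocyte-like cells. In endothelial-like cells it went from 29.6 to 46.2 CPM, with a log2 ratio of 0.64 (0.24 to 1.05), and in monocyte-like cells from 50.6 to 34.4 CPM, −0.56 (−1.08 to −0.02). Its levels were lowest in hepatocyte-like cells and highest in dendritic-like cells, at 71.7 CPM (WT, 46.8 to 105) and 64.0 CPM (N-LKO, 48.3 to 83.1), and in WT the interval of each class overlapped that of its neighbour in the order of levels.

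Mdm2 and Mdm4 were higher in N-LKO in each of the 10 classes, with intervals above 0 in 3 and 5. For Mdm2 these were hepatocyte-like, endothelial-like (37.0 and 55.9 CPM, log2 ratio 0.59) and plasmacytoid dendritic-like cells (7 and 46 UMIs, 1.36). For Mdm4 they were hepatocyte-like, endothelial-like (0.32), stellate-like (69.0 and 112 CPM, 0.70), cholangiocyte-like (0.94) and monocyte-like cells (0.57). Long genes were higher in N-LKO in the other classes too: outside hepatocyte-like cells the 8th decile of span had medians of 0.05 to 0.18. Mdm4 lay below that median in T/NK-like cells (0.06 against 0.18). It was level with it in plasmacytoid dendritic-like cells (0.17 and 0.17) and above it elsewhere. Mdm2 was highest in Kupffer/macrophage-like cells, where it scarcely differed, at 74.2 and 78.3 CPM. In barcodes under 500 UMIs the log2 ratio was 0.72 for Mdm2 and 1.07 for Mdm4, and with free RNA subtracted Mdm2 was still higher in 9 of 10 classes and Mdm4 in 7 of 10, Mdm4 being at −0.21 in T/NK-like, −0.09 in Kupffer/macrophage-like and −0.01 in plasmacytoid dendritic-like cells.

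The other targets showed no shared direction outside hepatocyte-like cells. Bax was higher in 6 of 10 classes, with an interval above 0 in Kupffer/macrophage-like cells (62.7 and 77.8 CPM, log2 ratio 0.31) besides hepatocyte-like cells. Sesn1 was higher in 8 of 10 classes, with intervals above 0 in Kupffer/macrophage-like (51.6 and 81.6 CPM, 0.66), stellate-like (0.57) and hepatocyte-like cells. Its levels were highest in B-like cells, at 109 CPM (WT) and 96.7 CPM (N-LKO). Ccng1 was higher in 3 of 10 classes and Gadd45a in 6. Phlda3 reached 5 CPM in 3 classes, endothelial-like, stellate-like and cholangiocyte-like, on at most 16 UMIs.

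Gdf15 had opposite signs in hepatocyte-like and Kupffer/macrophage-like cells, except that its sign in hepatocyte-like cells turned at the mitochondrial limit of 10%. In Kupffer/macrophage-like cells it was lower in N-LKO, with 51.2 CPM for WT (125 UMIs) against 37.3 CPM for N-LKO (238 UMIs) and a log2 ratio of −0.46 (−0.78 to −0.13), while in hepatocyte-like cells it was higher. With free RNA subtracted the log2 ratios were −0.71 and 1.02. Within cluster 1, which held 1518 WT and 3669 N-LKO Kupffer/macrophage-like cells, the levels were 51.9 and 38.9 CPM. In N-LKO, the lower end of the Gdf15 interval exceeded what free RNA could give in hepatocyte-like and Kupffer/macrophage-like cells; in monocyte-like, plasmacytoid dendritic-like and dendritic-like cells the levels (21.3, 24.8 and 12.6 CPM) were above the free-RNA values (17.005, 16.5 and 11.9 CPM) by less than counting error.

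Members at least 2-fold higher were also counted in the other 9 classes, each beside the share of all genes. The number at least 2-fold higher was 2 of 10 in endothelial-like cells (Cdkn1a and Phlda3; 7.41% of all genes), 0 of 10 in stellate-like (9.32%), 3 of 10 in cholangiocyte-like (12.1%), 1 of 9 in Kupffer/macrophage-like (5.22%) and 0 of 9 in monocyte-like cells (6.99%). It was 0 of 9 in dendritic-like (12.1%), 2 of 9 in plasmacytoid dendritic-like (13.4%), 1 of 9 in T/NK-like (9.6%) and 1 of 9 in B-like cells (12.7%). Phlda3 entered the endothelial-like and cholangiocyte-like counts through N-LKO alone (1.85 and 5.02 CPM; 0 and 6 UMIs) and could there only be counted as higher. The median ratio of the members lay between 0.06 in T/NK-like and 0.61 in cholangiocyte-like cells, and that of all genes between −0.07 and 0.03. Relative to all genes, the median of the members was 0.61 in cholangiocyte-like cells, on few UMIs, and 0.37 in hepatocyte-like cells. Apart from Cdkn1a, at most 2 members were 2-fold higher in any of these 9 classes.

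**Figure D4:**
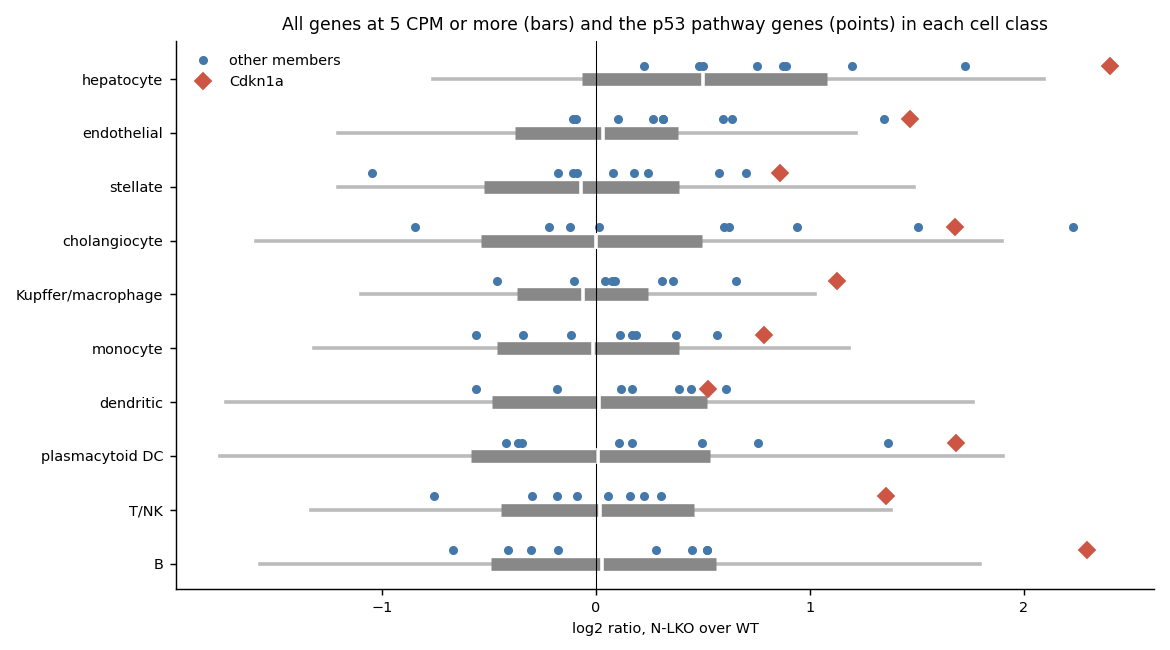
Log2 ratio of N-LKO over WT (horizontal axis) in the 10 cell classes (vertical axis): grey bars span the middle 50% and thin lines the middle 90% of all genes at 5 CPM or more, with the median in white, red diamonds are Cdkn1a and blue circles the other p53 pathway genes that reached 5 CPM. The hepatocyte bar is shifted to the right, with a median of 0.50, and Cdkn1a lies right of 0 in every class.

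A wider set of pathway genes gave the setting for these members. Of 21 further p53 target genes in the matrices, 19 reached 5 CPM in hepatocyte-like cells, 5 of them in N-LKO only. Of the 19, 10 were at least 2-fold higher in N-LKO (28.2% of all genes) and 1 lower (2.74%), with a median of 1.10 (0.50 for all genes). Counting only the 14 that reached 5 CPM in WT, 6 were at least 2-fold higher, as were 21% of all such genes. Of all 19, the highest were Ddb2, a DNA-damage recognition factor (4.80 and 19.05 CPM, log2 ratio 1.98), Apaf1, the scaffold of the apoptosome (7.82 and 28.3 CPM, 1.85), Eda2r (1.80), Sesn2 (1.60) and Rrm2b, a ribonucleotide reductase subunit (1.5). Of these, Apaf1 alone reached 5 CPM in WT; the other 4 could only have been counted as higher. Perp, a desmosomal protein linked to apoptosis, was lower, at 69.2 and 34.4 CPM (−1.01). Without the Malat1-extreme clusters, 2 of 18 such targets were at least 2-fold higher (6.23% of all genes). Of 12 regulators and relatives of p53, 8 reached 5 CPM and 2 were past 2-fold, the kinase gene Atr (1.34) and the ubiquitin ligase gene Cop1 (1.17), a share close to the 28.2% of all genes, and the median of the 8 was 0.82.

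Further lists were read in the same way. Of the integrated stress response genes, a program that shares Gdf15 and Sesn2 with p53 as targets, 4 of 8 were at least 2-fold higher in hepatocyte-like cells (28.2% of all genes): Slc7a11, the cystine transporter (1.96 and 34.2 CPM, 4.11), Trib3 (2.70), Sesn2 and Atf3 (25.01 and 71.8 CPM, 1.52). Slc7a11, Trib3 and Sesn2 reached 5 CPM in N-LKO only, and of the 5 that reached it in WT, Atf3 alone was past 2-fold (21% of all such genes). Of the immediate early and heat shock genes, which rise on cell dissociation, 2 of 11 were, Ier3 (2.84) and Fosb (2.35), with a median of 0.23; both reached 5 CPM in N-LKO only, and of the 9 that reached it in WT, 0 were past 2-fold. Of 12 genes of mitosis, a group that p53 represses through p21, 6 reached 5 CPM in hepatocyte-like cells and each of these was at least 2-fold higher, among them Cenpf (2.55 and 21.3 CPM, 3.05), Birc5 (2.03) and Mki67 (1.99). Of the 6, 5 reached 5 CPM in N-LKO only and so could only have been counted as higher. The same list went the other way in T/NK-like cells, where 8 of 11 were at least 2-fold lower in N-LKO (9.38% of all genes), with a median of −1.24. Of the 8, 4 were under 5 CPM in N-LKO and could only have been counted as lower; of the 7 genes of the list that reached 5 CPM in N-LKO, 4 were at least 2-fold lower, as were 6.84% of all such genes. Cdkn1a was higher in N-LKO in both classes.

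Among the genes whose levels over the 10 classes of both libraries were most like those of Cdkn1a were Itga5 (Pearson r = 0.85), Mt1 (0.85), Nol4l (0.81) and Mt2 (0.80), on 20 points and log2 values. For Trp53 they were Sf3b1 (0.89) and Trerf1 (0.89), and for Mdm2 Atp6v0d2 (0.90) and Cept1 (0.89). These correlations are descriptions over 10726 genes, and the points share libraries, depth and free RNA.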

How the data were processed

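Single liver cells were profiled with 10x Genomics 3′ v3 chemistry in 1 WT and 1 N-LKO library. The authors deposited UMI counts per gene and barcode, whole numbers that had not been normalized, made with Cell Ranger 7.1.0 according to the file headers. The submitters' processing notes also name Seurat and the genome build mm9, whereas 32235 of the 32285 gene IDs matched GENCODE M21 (GRCm38), which was used for genomic spans. The matrices carry no coordinates, and whether intronic reads were counted is not given in the sources used here. The matrices hold far more barcodes than the number of cells that the study plotted.

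Barcodes with at least 1000 UMIs, 400 genes and at most 30% mitochondrial UMIs were kept. Predicted doublets (score of 0.25 or more) were removed, 8.57% in WT and 10.6% in N-LKO. Cells were clustered with scanpy 1.11.5 and leidenalg 0.10.2 under Python 3.11.15 (2000 variable genes, 30 components, resolution 0.3), with the p53 and wider-list genes kept out of the variable genes. Clusters were named from fixed marker lists, and the thresholds for naming and doublets were set after the data had been seen. One cluster with markers of several types (572 WT and 1275 N-LKO cells) entered no class.

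For each class and library the UMIs were added up and divided by the class total to give CPM. Log2 ratios used 0.5 UMI added to each sum. The free-RNA profile came from barcodes under 500 UMIs, and its share in a class from markers of other classes, an upper estimate. No deposited barcode held fewer than 326 UMIs in WT or 377 in N-LKO, so the profile may include shallow cells. Rules were tested on simulated data: of genes made 2.5-fold different in hepatocyte-like sums of 9371 genes, 100% of those raised and 98% of those lowered were called, and 0% of unchanged genes. In the shallower T/NK-like sums of 10718 genes the shares were 83%, 85% and 1.71%. Both simulated libraries were Poisson draws from the WT sums. They held counting error only, without variation between mice or differences in cluster makeup or free RNA, so the shares do not describe errors from these.

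The 10 members were always named. Of each wider list, up to 5 genes with the highest and 5 with the lowest ratio past 2-fold were named in hepatocyte-like cells and up to 3 each elsewhere. The wider lists were p53 targets, p53 regulators, integrated stress response, immediate early and heat shock, and mitosis genes. Members and lists were chosen with earlier results of these data known. The cluster pairs, the counts of UMIs per cell and the counts of genes at 5 CPM in WT or in N-LKO were added after the data had been seen. Alternatives included TMM factors from edgeR 4.0.16 (R 4.3.3), other cell filters, another class assignment and free RNA subtracted.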

Additional observations from a re-analysis of the deposited data

Results flagged for a closer look

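Trp53 had opposite signs in different classes: its log2 ratio of N-LKO over WT was −0.56 in monocyte-like cells and 0.64 in endothelial-like cells, with neither interval including 0. Gdf15 likewise was at −0.46 in Kupffer/macrophage-like cells and 0.75 in hepatocyte-like cells, the latter turning to −0.58 with a mitochondrial limit of 10%. With 1 library per group the differences between classes were not tested.

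Signal for the members also appeared in data outside the named classes. In the 18526 WT and 13674 N-LKO barcodes under 500 UMIs, where 18.6% of genes were at least 2-fold higher in N-LKO, Cdkn1a had a log2 ratio of 1.68 (153 and 366 UMIs) and Mdm4 one of 1.07 (172 and 270 UMIs). In the cluster with markers of several cell types, where 6.05% of genes were at least 2-fold higher, Cdkn1a was at 37.1 and 94.0 CPM, a log2 ratio of 1.32 (36 and 202 UMIs).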

How the results depend on the processing

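No paired analysis was possible because each group had 1 library, and for the same reason no replicate could be left out. Among the results that answer a comparison, 104 values under other settings stayed within their interval or 1.5 times and 18 moved. For the median of a list, this interval came from the spread between its genes and not from counting error. For the members in hepatocyte-like cells it ran from 0.48 to 1.72, so a median that stayed may still have shifted by more than counting error. For single genes the interval covered counting error. Among values of single genes 332 stayed and 74 moved, and 1 that had been past 2-fold changed sign: Sesn1 in hepatocyte-like cells came to −0.14 without the Malat1-rich and Malat1-poor clusters. The 332 include values with no filter on low values and with a filter of 20 CPM. Those settings cannot change the ratio of a single gene. With values under 2-fold included, 22 changed sign, 8 of them for members in hepatocyte-like cells: besides Sesn1, Gdf15 at −0.58 with a mitochondrial limit of 10%, and Trp53, Ccng1 and Gadd45a at −0.10, −0.38 and −0.12 with TMM factors, and at −0.0012, −0.28 and −0.02 once the all-gene median was subtracted.

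Scaling mattered most in hepatocyte-like cells. TMM factors moved the median of all genes from 0.50 to −0.15 and turned the split of 28.2% of genes 2-fold higher and 2.74% lower into 9.08% and 13.3%. The median of the members, 0.87, was then 0.27, and after subtracting the all-gene median 0.37. The wider p53 targets 2-fold higher, 10 of 19, became 2 of 17 under TMM factors (9.08% of all genes), 4 of 19 relative to the median of all genes (12.1%), 4 of 8 with a filter of 20 CPM (26.4%), 4 of 17 with classes from marker counts per cell (11.9%) and 2 of 18 without the Malat1-extreme clusters (6.23%). The 3 members past 2-fold became 6 of 9 with free RNA subtracted, where 44.4% of all genes passed and Sesn1, at 0.73, no longer did, and 6 of 9 at a threshold of 1.5-fold, which 46.4% of all genes passed. Nus1, at −0.96, was at −0.75 with a mitochondrial limit of 10%, −0.77 with doublets kept, −1.80 with free RNA subtracted, −1.56 with TMM factors and −1.46 relative to all genes. The median of the members in T/NK-like cells, 0.06, was 0.46 with the mitochondrial limit of 10% and 0.34 with classes from marker counts. At 1500 UMIs per cell the shares with Cdkn1a were 2.55% in WT and 13.3% in N-LKO.

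The log2 ratio of Cdkn1a lay between 1.21 and 3.41 in hepatocyte-like cells under the 14 settings, always past 2-fold. Settings that changed only the filter on low values could not alter this ratio. In monocyte-like cells the log2 ratio of Cdkn1a was −0.31 with the mitochondrial limit of 10%. Classes with under 50 cells in a library were given no value. Of the 10 classes, 3 had a value at a minimum of 2000 UMIs and 6 at the mitochondrial limit of 10%. At a minimum of 500 UMIs 9 had one, all but dendritic-like cells. Depth limits Phlda3 most, with 5 WT UMIs in hepatocyte-like cells, and the small classes, where Cdkn1a rests on 4 to 10 WT UMIs.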
